A study of Homo sapiens with 36 samples.

Results

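The response to androgen was measured in 42D sgT33-5 cells, as 3 libraries from cells treated for 6 h with 5 nM R1881 against 3 libraries from cells treated with DMSO, the solvent. The 6 libraries were chosen by their labels alone and are 6 of 36 in the series, which holds 12 groups of LNCaP and 42D prostate cancer lines. LNCaP cells came from a lymph node metastasis of a prostate cancer and respond to androgen, and 42D cells descend from them and resist the antiandrogen enzalutamide. The labels expand neither sgT33-5 nor NT3, and these names were taken, with the series title in view, to mean a CRISPR guide for TRIM33 and a guide with no target. All groups used here were kept for 3 days in medium with 5% charcoal-stripped serum, which removes steroid hormones, before R1881 or DMSO was added. The groups compared with 42D sgT33-5 were 42D NT3 and LNCaP sgT33-5, each with 3 DMSO and 3 R1881 libraries. The sources used here do not say whether 42D sgT33-5 is a clone or a pool, whether enzalutamide was present, or whether the replicates were separate cultures. The routine culture described in the labels names LNCaP alone.

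R1881 (metribolone) is a synthetic androgen that is not readily metabolised. Androgens change transcription directly, in concert with pioneer factors such as FOXA1, so that genes of luminal prostate cells, among them the kallikrein proteases, are switched on while others are switched off. TRIM33 is a chromatin-bound ubiquitin ligase of the TIF1 family, and the title of the series concerns its loss.

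Library totals in 42D sgT33-5 were 15497362 to 16537509 counts. The chi-square per gene between replicates was 2.95 to 4.66, above the value of about 1 set by sampling noise, so no libraries were merged. Mitochondrial genes took 4.16% to 4.59% of the counts with DMSO and 3.41% to 3.79% with R1881. Markers of the labelled cell type were present, with 9 of 9 luminal prostate markers above 1 CPM (counts scaled to a common normalised library total) and 3 of 3 basal markers below it, KRT5 at 0. All 11 leukocyte markers lay below 1 CPM, 6 of them at 0, and 5 of 6 endothelial markers lay below it, KDR being the exception. Of 13 fibroblast and mesenchymal markers 7 were above 1 CPM, with COL1A2 and FAP at 0 and a summed level, carried mostly by FN1, of 196 to 230 CPM with DMSO and 161 to 182 CPM with R1881. Of 4 neuroendocrine markers 2, SYP among them, exceeded 1 CPM and INSM1 was at 0, and the summed level was 6.81 to 7.47 CPM with DMSO and 5.12 to 6.43 CPM with R1881. The part these markers play in the results was not tested.

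TRIM33 itself (ENSG00000197323, chromosome 1, 114392790 to 114511203, GRCh38) was expressed in every library of the line. Its level was 59.99, 57.8 and 54.7 CPM in the DMSO libraries and 74.9, 74.7 and 73.1 CPM in the R1881 libraries, a log2 fold change of 0.37 (SE 0.0528, edgeR quasi-likelihood test, adjusted p = 1.08e-05). In 42D NT3 the levels were 85.1, 79.03 and 88.7 CPM with DMSO and 102, 110.2 and 107 CPM with R1881. No sgT33-5 library reached the NT3 libraries of its treatment, while androgen raised the transcript in both lines and the difference between the rises was 0.03 (0.0729) (adjusted p = 0.981). A guide can disrupt a protein while its transcript is still counted, so these values do not measure TRIM33 protein.

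Androgen changed 4211 of the 15403 genes tested in 42D sgT33-5, which is 27.3%. Of these, 2173 (14.1%) rose and 2038 (13.2%) fell, at an adjusted p under 0.05. At least 2-fold changes were fewer, with 449 genes higher and 320 lower. The genes that rose at least 2-fold took 1.21% to 1.24% of all counts in the DMSO libraries and 3.8% to 4.05% in the R1881 libraries, and those that fell went from between 1.09% and 1.21% to between 0.353% and 0.42%. The median log2 fold change over all genes tested was -0.01 (-0.0149). These are bulk measurements, in which fewer cells of a type and less RNA per cell cannot be told apart. Below, log2 fold changes of R1881 against DMSO are followed by their SE in brackets, the 3 values of a group are its 3 libraries, and CPM is not divided by gene length and so is not compared between genes.

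**Figure D1:**
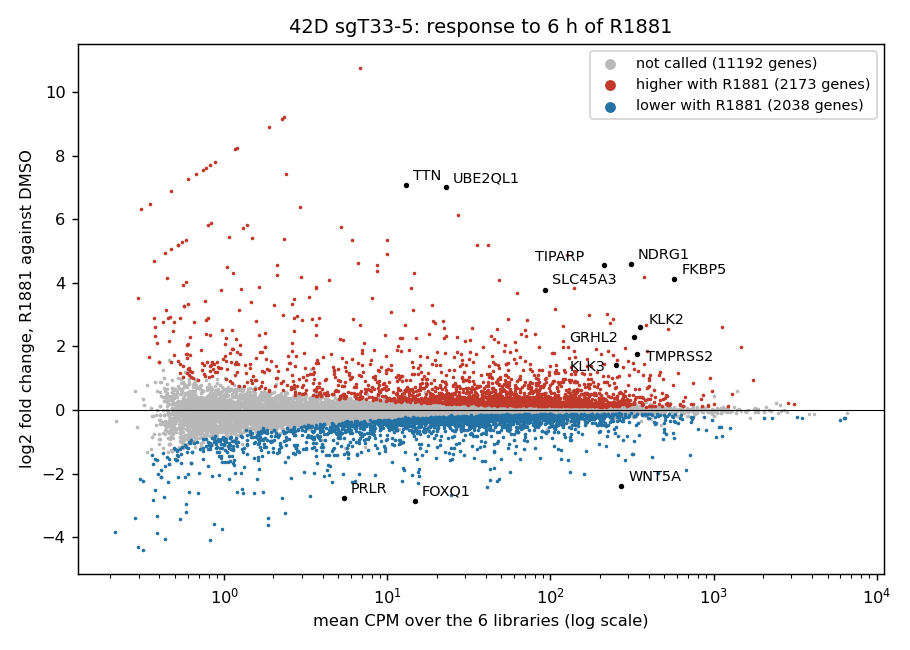
Log2 fold change of R1881 against DMSO (vertical axis) against the mean CPM over the 6 libraries of 42D sgT33-5 (horizontal axis, log scale), 1 point per gene for 15403 genes. Red points are the 2173 genes called higher, blue points the 2038 called lower, and grey points were not called. Rises reach further from 0 than falls.

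The transcription factors and cofactors of luminal prostate cells named here moved in both directions. GRHL2, PIAS1 and GATA2 were named for large called changes, so they do not describe such genes as a group. HOXB13, a homeobox factor of the prostate, went from 622, 598 and 579 to 387, 421 and 388 CPM. GATA2, a zinc finger pioneer factor, went from 261, 248 and 227 to 151, 161 and 146 CPM. Both fell without overlap, with log2 fold changes of -0.59 (0.0455) and -0.68 (0.0635). The pioneer factor FOXA1 had 383, 383 and 389 CPM with DMSO and 407, 411 and 402 CPM with R1881, a log2 fold change of 0.08 (0.0400) that missed the threshold (adjusted p = 0.158). GRHL2, an epithelial transcription factor, rose by 2.3 (0.053), from 113, 104 and 114 CPM to 527, 543 and 563 CPM. PIAS1, a SUMO ligase that acts on transcription factors, rose by 1.11 (0.0415), from 62.5, 61.6 and 63.2 CPM to 132, 135 and 136 CPM.

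The strongest rises began from almost no transcript. SLC2A3, which encodes the glucose transporter GLUT3, had 0 counts in all 3 DMSO libraries and 10.8, 12.9 and 17.2 CPM in the R1881 libraries. Against a floor of 3 counts over the DMSO group it was at least 223-fold higher. UBE2QL1, of the ubiquitin-conjugating enzyme family, went from 0.495, 0.179 and 0.362 CPM to 39.4, 48.1 and 47.9 CPM, a log2 fold change of 7.0 (0.184). STEAP4, a metalloreductase, went from 0.186, 0.12 and 0.241 CPM to 8.69, 10.7 and 11.2 CPM, a rise of 5.75 (0.263). These genes were close to silent in every DMSO library and expressed in every R1881 library, a pattern that ranking by log2 fold change favours. MAK, a kinase first described in male germ cells, went from 0.247, 0.359 and 0.783 CPM to 19.5, 21.2 and 17.6 CPM. SNAI2, a repressor of epithelial adhesion genes, went from 0.309, 0.299 and 0.241 CPM to 12.5, 10.7 and 12.3 CPM. CHRNA2, a nicotinic receptor subunit, went from 0.804, 0.418 and 0.663 CPM to 17.9, 20.2 and 19.8 CPM. Their rises were 5.36 (0.202), 5.35 (0.195) and 4.92 (0.181) on the log2 scale. All had groups that did not overlap, which the choice of the largest rises required.

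SGK1, CTNNA2 and TMCC3 were above 1 CPM in every DMSO library. SGK1, a steroid-induced kinase that controls ion transport, went from 9.83, 10.3 and 4.7 CPM to 223, 245 and 269 CPM, a log2 fold change of 4.89 (0.207). CTNNA2, an alpha-catenin of neural tissue, went from 1.86, 1.79 and 1.93 CPM to 67.9, 71.9 and 65.8 CPM, a rise of 5.2 (0.1003). TMCC3, a membrane protein of the endoplasmic reticulum, went from 2.47, 2.15 and 1.93 CPM to 79.9, 73.2 and 88.1 CPM, a rise of 5.2 (0.105). None of these genes had overlapping groups, and the SGK1 value of DMSO replicate 3 was below those of the other DMSO libraries. MOGAT2, an acyltransferase of triglyceride synthesis, had 3 counts over the DMSO libraries and 270 over the R1881 libraries, and its fitted log2 fold change was 6.39 (0.428). TTN, which encodes titin, rose by 7.08 (0.459) and CCDC141 by 6.14 (0.131). The 2 genes overlap on chromosome 2, where TTN ends at 178830802 and CCDC141 starts at 178829757. Both lie on the minus strand, so reads within this overlap may be shared.

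Textbook androgen targets were higher in every R1881 library than in any DMSO library. FKBP5, an immunophilin of the steroid receptor chaperone complex, went from 63.8, 60.7 and 62.9 CPM to 1097, 1100.2 and 1062 CPM, a log2 fold change of 4.12 (0.0475) (adjusted p = 6.24e-24). SLC45A3, which encodes prostein, went from 12.1, 13.6 and 11.7 CPM to 156, 189 and 173 CPM, a rise of 3.79 (0.133). NDRG1, a stress and differentiation gene, went from 24.9, 26.5 and 22.8 CPM to 540.4, 595 and 657 CPM, a rise of 4.59 (0.101). TMPRSS2, a membrane serine protease, went from 161, 159 and 138 CPM to 494, 572 and 506 CPM, a rise of 1.78 (0.0601). KLK2, a kallikrein, went from 85.04, 112 and 104 CPM to 504, 592 and 726 CPM, a rise of 2.6 (0.233). KLK3, which encodes prostate-specific antigen, went from 135, 141 and 141 CPM to 343, 356 and 403 CPM, a rise of 1.41 (0.134) (adjusted p = 3.47e-05). The kallikreins are close paralogs, so reads may be split between them. MAF, a bZIP transcription factor, rose by 3.84 (0.132). Smaller rises in the panel of 28 genes named in all comparisons were those of CAMKK2, a kinase upstream of AMPK, by 1.91 (0.0497), of ABCC4, an efflux pump, by 1.58 (0.0635), and of ELL2, an elongation factor, by 2.39 (0.0686). Of this panel 17 genes rose and 9 fell, beside 14.1% and 13.2% of all genes tested. The panel was chosen with earlier results of these data known, so these counts are not a test.

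**Figure D2:**
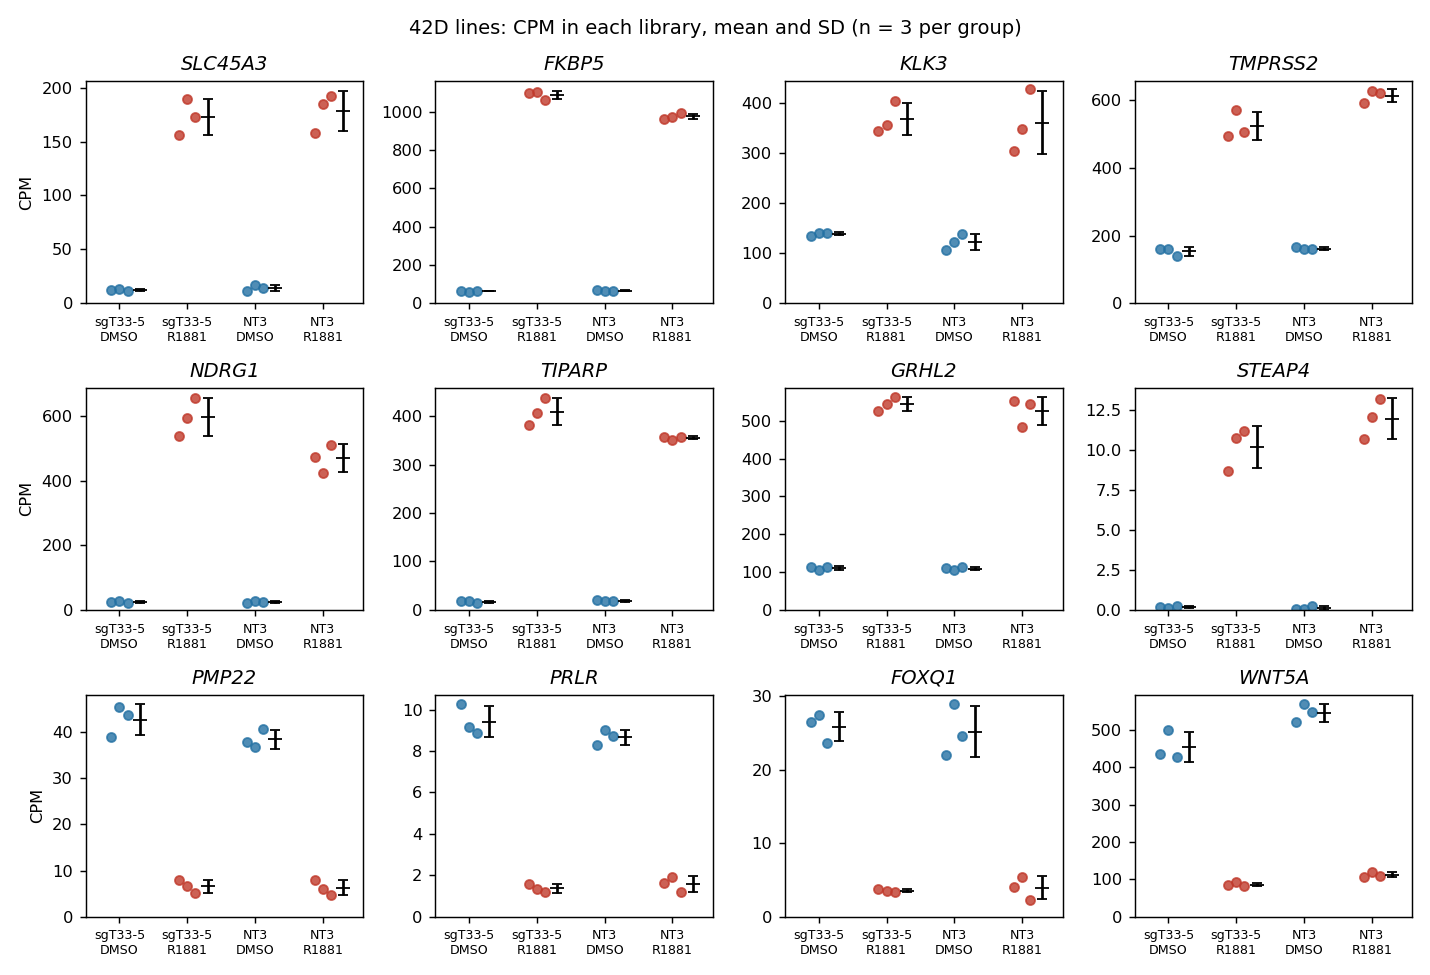
CPM in each library (points; blue for DMSO, red for R1881) for 12 genes in 42D sgT33-5 and 42D NT3, with the mean and SD of the 3 libraries beside them. All vertical axes start at 0. SLC45A3, FKBP5, KLK3, TMPRSS2, NDRG1, TIPARP, GRHL2 and STEAP4 are higher with R1881 in both lines, and PMP22, PRLR, FOXQ1 and WNT5A are lower.

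The largest falls among genes that reached 5 CPM were smaller than the largest rises. FOXQ1, a forkhead factor, went from 26.5, 27.4 and 23.6 CPM to 3.73, 3.54 and 3.38 CPM, a log2 fold change of -2.86 (0.184). PRLR, the prolactin receptor, went from 10.3, 9.14 and 8.86 CPM to 1.59, 1.33 and 1.19 CPM, a change of -2.77 (0.164). WNT5A, a ligand of noncanonical Wnt signalling, went from 435, 500.5 and 428 CPM to 84.4, 91.7 and 82.3 CPM, a change of -2.4 (0.0635). In each case the highest R1881 library was far below the lowest DMSO library. Groups without overlap were a condition for the 12 largest falls. TNFSF15, a cytokine of the tumour necrosis factor family, went from 70.2, 82.8 and 52.9 CPM to 12.9, 15.5 and 9.56 CPM. TRIM45, a tripartite-motif protein, went from 79.9, 71.3 and 82.4 CPM to 16.6, 14.7 and 18.6 CPM. Their log2 fold changes were -2.43 (0.202) and -2.23 (0.104). Log2 fold changes of -2.69 (0.132) in PMP22, a myelin and junction protein, -2.71 (0.285) in TMEM140, -2.29 (0.166) in CBLN2, a synaptic organiser, -2.27 (0.263) in the thrombin receptor THBD, -2.25 (0.26) in the fatty acid receptor FFAR2, -2.23 (0.132) in the adhesion molecule AMIGO2 and -2.22 (0.209) in the matrix protein TINAGL1 complete the 12 largest falls.

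Steroid hormone response elements in DNA are made of paired arms, each resembling the hexamer AGAACA. The 250 bases before the RefSeq start (GRCh38.p14) are shown for KLK3, which rose, and for PLD1 and TMEM140, which fell, as examples of named genes with 1 listed start and the hexamer on the gene's own strand. PLD1, a phospholipase, went from 3.28, 3.65 and 5.97 CPM to 0.49, 0.442 and 0.398 CPM, a log2 fold change of -3.25 (0.364). The capitals mark AGAACA or its reverse complement TGTTCT, and the sequences are at chr19:50854665-50854914, plus strand for KLK3, chr3:171810484-171810733, minus strand for PLD1 and chr7:135147822-135148071, plus strand for TMEM140.
KLK3: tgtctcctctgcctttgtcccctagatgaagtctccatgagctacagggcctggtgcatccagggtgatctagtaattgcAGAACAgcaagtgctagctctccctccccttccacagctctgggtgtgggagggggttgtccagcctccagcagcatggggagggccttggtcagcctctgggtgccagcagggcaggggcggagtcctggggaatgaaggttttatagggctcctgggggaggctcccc
PLD1: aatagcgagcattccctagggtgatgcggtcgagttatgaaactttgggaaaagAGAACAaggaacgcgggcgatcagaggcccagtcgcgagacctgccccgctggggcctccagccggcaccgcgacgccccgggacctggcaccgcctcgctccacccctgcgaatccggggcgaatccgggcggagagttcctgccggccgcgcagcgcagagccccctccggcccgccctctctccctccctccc
TMEM140: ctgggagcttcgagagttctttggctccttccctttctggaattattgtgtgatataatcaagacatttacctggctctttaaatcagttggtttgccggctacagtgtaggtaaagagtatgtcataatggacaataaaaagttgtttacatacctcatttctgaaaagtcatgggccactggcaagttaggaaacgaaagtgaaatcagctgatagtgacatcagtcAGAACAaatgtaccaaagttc
The hexamer begins 170 bases before the start in KLK3, 196 in PLD1 and 21 in TMEM140. On either strand it occurs in the same window of 3397 of 27305 RefSeq promoters (12.4%), so a match alone does not establish a binding site. Binding was not tested. RefSeq promoters were matched for 84 of 120 named genes, and 12 of the named genes held the hexamer in this window. A comparison of its share between rising and falling genes was void, because the table matched 311 of 449 genes at least 2-fold higher (69.3%) and 201 of 320 at least 2-fold lower (62.8%), under the 80% required.

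Among 107 tested genes of the androgen response list, 87 rose and 2 fell, which is 81.3% and 1.87% beside 14.1% and 13.2% of all genes. The median log2 fold change was 0.85 against -0.01 over all genes. The 2 that fell were FOLH1, which encodes prostate-specific membrane antigen, with a log2 fold change of -0.59 (0.0517), and the glycerol-3-phosphate dehydrogenase GPD1L, with -0.28 (0.0562). FOLH1 went from 923, 934 and 1023 CPM to 644, 611 and 658 CPM. Of 23 tested androgen repressed genes 15 fell (65.2%) and 4 rose (17.4%), with a median of -0.64. SLC30A10, a manganese transporter, had 26 counts over the DMSO libraries and 2 over the R1881 libraries, and its call was lost without DMSO replicate 1 or 2 or without R1881 replicate 1 or 3, with an adjusted p of 0.0589 to 0.0731. The opioid receptor OPRK1 changed by -1.5 (0.227) and BAMBI, a pseudoreceptor of TGF-beta signalling, a log2 fold change of -1.3 (0.118). GREB1, a steroid-induced growth regulator, and TMEFF2, a transmembrane protein, rose against the name of their list, GREB1 from 23.01, 18.2 and 22.7 CPM to 162, 194 and 223 CPM and TMEFF2 by 1.05 (0.215). Of the panel, CAMK2N1, an inhibitor of CaM kinase II, changed by -0.61 (0.0688), while the secreted phospholipase PLA2G2A, with 173, 189 and 130.1 CPM and then 130.4, 146 and 95.6 CPM, missed the threshold (adjusted p = 0.149) and was called lower with the replicate number as a block (adjusted p = 6.58e-05).

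**Figure D3:**
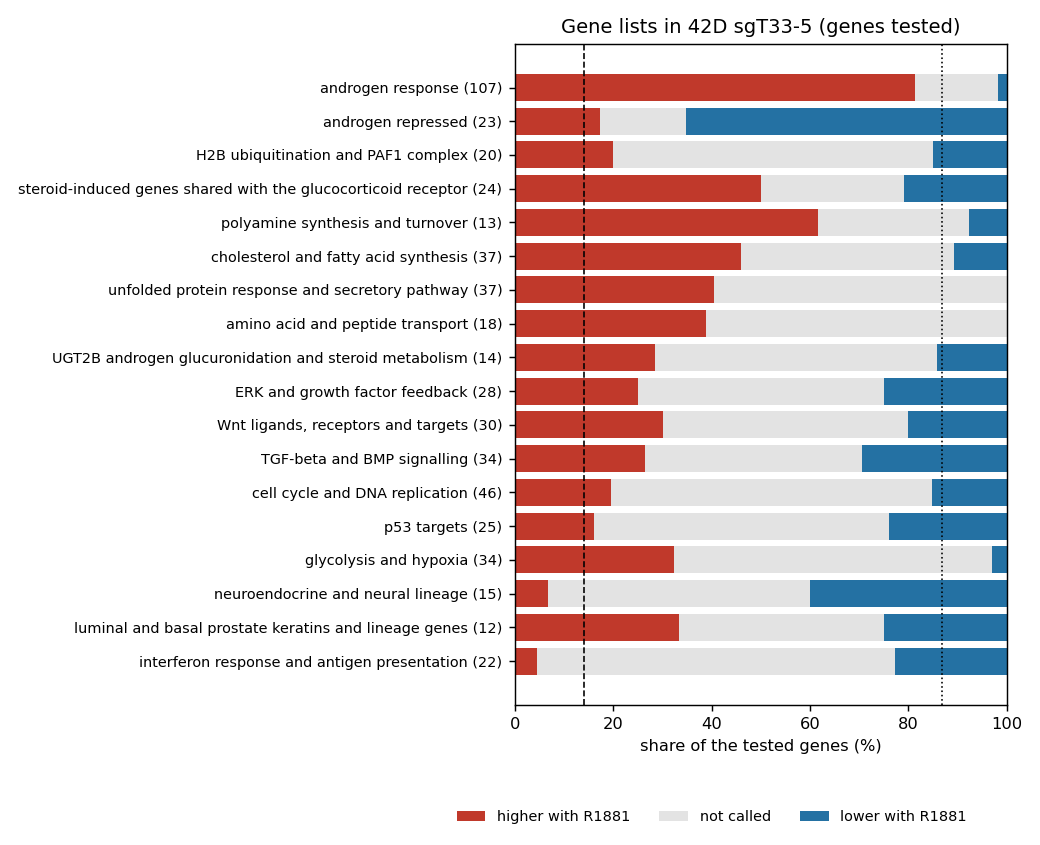
Share of the tested members of 18 gene lists (number tested in brackets) that were called higher with R1881 (red), called lower (blue) or not called (grey) in 42D sgT33-5. The dashed line is the share of all tested genes called higher (14.1%), and the dotted line marks, from the right edge, the share called lower (13.2%). The androgen response list is called higher for 81.3% of its members and the androgen repressed list lower for 65.2%.

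Of genes that the glucocorticoid receptor also induces, 12 of 24 tested rose (50%) and 5 fell (20.8%), with a median of 0.51. For all genes the shares were 14.1% and 13.2%. TIPARP, a mono-ADP-ribosyltransferase, rose by 4.56 (0.0700), from 19.05, 17.9 and 14.9 CPM to 382, 407 and 437 CPM. TSC22D3, which encodes the glucocorticoid-induced leucine zipper protein, fell from 108, 106 and 124 CPM to 64.8, 60.5 and 63.8 CPM, a log2 fold change of -0.84 (0.0707), and the apoptosis inhibitor BIRC3 changed by -0.84 (0.233). The number that fell was 2 without R1881 replicate 3 and 3 without DMSO replicate 1, and the call of BIRC3 was lost without the latter (adjusted p = 0.0746).

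Genes of polyamine, lipid, amino acid and secretory metabolism were called higher more often than lower. The shares over all genes tested were 14.1% higher and 13.2% lower. ODC1, the first enzyme of polyamine synthesis, rose from 599, 582 and 622 CPM to 2176, 2512 and 2373 CPM, a log2 fold change of 1.97 (0.0564), and the acetyltransferase SAT1, which starts polyamine breakdown, by 1.59 (0.123). In the polyamine list 8 of 13 members rose and 1 fell, with a median of 0.19. The member that fell, AZIN2, changed by -0.42 (0.129) and lost its call without R1881 replicate 1 or 2 or DMSO replicate 2, with an adjusted p of 0.0642 to 0.106, and with DESeq2 (0.0679) and no filter (0.0505). In cholesterol and fatty acid synthesis 17 of 37 members rose and 4 fell, with a median of 0.17. ACSL3, which activates long-chain fatty acids, rose from 119.5, 114 and 120.0 CPM to 431, 465 and 469 CPM, by 1.95 (0.0469). INSIG2, which holds the sterol sensor in the endoplasmic reticulum, fell from 81.6, 74.6 and 66.5 CPM to 28.5, 24.7 and 23.4 CPM, a log2 fold change of -1.54 (0.103), and the elongase ELOVL6 changed by -0.48 (0.0553).

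In the unfolded protein response and secretory list 15 of 37 members rose and 0 fell, with a median of 0.23. With the replicate number as a block these counts were 24 and 2, and without DMSO replicate 2 the number that fell was 1. Here too 14.1% and 13.2% of all genes rose and fell in the main fit. ERN1, the sensor kinase IRE1, went from 51.3, 41.5 and 48.3 CPM to 163, 152 and 173 CPM, a rise of 1.79 (0.0949). DNAJB9, a chaperone of the endoplasmic reticulum, had 21.1, 21.3 and 27.2 CPM with DMSO and 53.9, 45.1 and 83.3 CPM with R1881, where replicate 3 was highest, and rose by 1.39 (0.293). In amino acid and peptide transport 7 of 18 members rose and 0 fell, with a median of 0.11, and with the block 2 fell. Without DMSO replicate 2 the number that fell was also 2. It was 1 without DMSO replicate 3 or R1881 replicate 1, and with DESeq2 or no filter. The peptide transporter SLC15A2 rose from 1.48, 1.49 and 1.45 CPM to 10.7, 10.04 and 12.01 CPM, by 2.88 (0.168), and the amino acid transporter SLC38A4 had 1 count over the DMSO libraries and 48 over the R1881 libraries. In the glycolysis and hypoxia list 11 of 34 members rose and 1 fell, with a median of 0.07, and the member that fell was the oxygen sensor EGLN3, a log2 fold change of -1.33 (0.0727).

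Genes that handle androgen itself changed in both directions, with 4 of 14 tested members higher (28.6%), 2 lower (14.3%) and a median of 0.13. Over all genes these shares were 14.1% and 13.2%. SRD5A1, a steroid 5-alpha-reductase, rose by 0.83 (0.0711) and the dehydrogenase HSD17B11 by 0.64 (0.134). UGT2B15, which conjugates androgens for excretion, went from 34.6, 36.7 and 34.95 CPM to 17.8, 15.5 and 17.5 CPM and its close paralog UGT2B17 from 75.1, 81.3 and 87.3 CPM to 60.5, 50.1 and 59.9 CPM. Both fell, with log2 fold changes of -1.06 (0.13) and -0.52 (0.0693), and reads may be split between these paralogs.

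Growth factor, Wnt and TGF-beta genes were split between rises and falls, as were all genes tested (14.1% and 13.2%). IGF1R, the insulin-like growth factor receptor, went from 3.46, 2.63 and 2.65 CPM to 26.5, 25.5 and 25.8 CPM, a log2 fold change of 3.15 (0.112). ERRFI1, an inhibitor of the EGF receptor, went from 50.8, 45.95 and 50.3 CPM to 368, 374 and 449.8 CPM, a rise of 3.02 (0.0839). SPRY1, a feedback inhibitor of receptor tyrosine kinases, changed by -1.62 (0.102) and the ephrin receptor EPHA2 by -1.07 (0.124). In the list of ERK and growth factor feedback 7 of 28 members rose and 7 fell, with a median of 0.09. In the Wnt list 9 of 30 rose and 6 fell, with a median of 0.00 (0.00214). The receptor FZD5 rose from 15.5, 14.1 and 13.7 CPM to 71.00, 71.6 and 73.3 CPM, by 2.32 (0.0613), while the ligand WNT4 changed by -1.43 (0.191) beside WNT5A. In TGF-beta and BMP signalling 9 of 34 rose and 10 fell, with a median of -0.01. PMEPA1, which blocks SMAD activation, rose from 39.6, 36.3 and 38.2 CPM to 304, 318 and 293 CPM, by 3.0 (0.052). The receptor BMPR1B rose by 2.8 (0.255), from a mean of 0.384 CPM to 2.72 CPM. The ligands BMP2 and BMP4 changed by -1.68 (0.309) and -1.32 (0.318).

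Lineage genes of the luminal and basal list were split, while called members of the neuroendocrine and neural list mostly fell. The shares over all genes were 14.1% higher and 13.2% lower. KRT8, a luminal keratin, rose from 251, 228 and 223 CPM to 493, 515 and 511 CPM, by 1.11 (0.0464). The junction protein CLDN4 and the integrin ITGA6 changed by -0.46 (0.057) and -0.44 (0.0536). In the luminal and basal list 4 of 12 tested members rose and 3 fell, with a median of 0.02. KRT19 counted among the rises, with means of 0.363 CPM with DMSO and 0.825 CPM with R1881. Its call was lost without any 1 of 5 of the 6 libraries (adjusted p of 0.08 to 0.19). It was also lost without any 1 of 4 of the NT3 libraries (0.0527 to 0.0562) and with DESeq2 (0.116). In the neuroendocrine and neural list 6 of 15 tested members fell (40%) and 1 rose, with a median of -0.36. The neural factor POU3F2 went from 7.79, 7.47 and 8.14 CPM to 4.9, 2.84 and 3.05 CPM, a change of -1.11 (0.165), and the groups did not overlap. The synaptic protein NRXN3 rose by 0.48 (0.081). Counts of this list held within 1.5-fold in every alternative run.

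Cell cycle genes were called at shares nearer to those of all genes (14.1% and 13.2%). Of 46 tested members 9 rose (19.6%) and 7 fell (15.2%), with a median of -0.03. The number that fell was 12 with the replicate block and 4 without R1881 replicate 2 or without DMSO replicate 3. CDK1, the mitotic kinase, rose from 219, 230.3 and 214 CPM to 314, 349 and 305 CPM, by 0.55 (0.0801), and the checkpoint kinase BUB1B changed by -0.27 (0.0449). CDK6 and CCNE2 were called, with log2 fold changes of 1.28 (0.425) and -0.25 (0.0767). CDK6 was low, with means of 0.345 CPM with DMSO and 0.853 CPM with R1881. Its call was lost without R1881 replicate 3 or DMSO replicate 2 or 3 (adjusted p of 0.0882 to 0.131) or with DESeq2 (0.0718). The call of CCNE2 was lost without R1881 replicate 2 or 3 or DMSO replicate 2 or 3 (0.056 to 0.0994).

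Of 25 p53 targets 4 rose and 6 fell, which is 16.0% and 24.0% beside 14.1% and 13.2% of all genes, with a median of -0.04. The rises were 7 with the replicate block, and the falls were 3 without DMSO replicate 1 or with only the libraries compared. TP53INP1, a proapoptotic p53 partner, fell from 433, 486 and 459.6 CPM to 174, 184 and 165 CPM, a log2 fold change of -1.4 (0.0507). The death receptor TNFRSF10B rose from 183, 195 and 188 CPM to 443, 457 and 494 CPM, by 1.3 (0.0493), and the BH3-only gene PMAIP1 by 0.86 (0.189), while the death receptor FAS changed by -0.73 (0.171). Of 22 tested interferon and antigen presentation genes 1 rose, which was B2M, the light chain of class I molecules, by 0.75 (0.0447). Another 5 fell, among them IFIT2 with a log2 fold change of -1.24 (0.292) and IFIT1 with -0.72 (0.224), at levels near or below 2 CPM, with a list median of -0.05. These counts moved, to 4 rises with the block and to 2 rises without R1881 replicate 3, with RLE scaling or without mitochondrial genes. The falls were 3 and 2 without DMSO replicate 2 and 3, and 3 with DESeq2 or with no filter. The call of IFIT1 was lost without R1881 replicate 1 or DMSO replicate 2 or 3 (adjusted p of 0.0508 to 0.0712), with DESeq2 (0.0879) and with no filter (0.0511).

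The machinery of H2B ubiquitination, which the title of the series names, showed small changes. Of 20 tested members 4 rose and 3 fell, which is 20.0% and 15.0% beside 14.1% and 13.2% of all genes, with a median of 0.05. The ubiquitin-conjugating enzymes UBE2E1 and UBE2B rose by 0.25 (0.051) and 0.19 (0.0598). UBE2B, the human RAD6B that pairs with the RNF20 and RNF40 ligases, had 34.4, 36.5 and 35.6 CPM with DMSO and 40.8, 37.5 and 43.1 CPM with R1881, and its call was lost without R1881 replicate 1 or 3 or DMSO replicate 1 (adjusted p of 0.0599 to 0.128). The deubiquitinase USP27X and the PAF1 complex subunit LEO1 changed by -0.28 (0.0882) and -0.19 (0.0504). The number that fell was 1 without R1881 replicate 2 or 3 or DMSO replicate 1 or 3, and also with DESeq2 or no filter. The number that rose was 2 without R1881 replicate 3. USP27X lost its call without each of those 4 libraries (adjusted p of 0.06 to 0.0784), with DESeq2 (0.0665) and with no filter (0.0579).

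The response of 42D sgT33-5 was then compared with that of 42D NT3, which share no library, to ask whether the androgen response differs between these lines. Each guide is represented in 42D by 1 line, so effects of guide and line cannot be told apart. Of the 2173 genes that rose in sgT33-5 and the 2142 that rose in NT3, 1604 were shared, which is 73.8% of the former and 74.9% of the latter. Of the 2038 and 1759 genes that fell, 1316 were shared, which is 64.6% and 74.8%. Called changes ran in opposite directions for 19 genes. Among the 769 genes called at least 2-fold in sgT33-5, 761 had the same sign in NT3 and 89 were not called there. Pearson's r between the fold changes of these 769 genes was 0.964, a description of genes chosen by their change in sgT33-5. A gene called in 1 line only is not thereby shown to differ between the lines, which the next test addresses.

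The difference between the 2 responses passed the threshold for 19 of 15403 genes (0.123%), with 4 responses higher and 15 lower in sgT33-5, and 1110 genes had an unadjusted p under 0.05. None of the panel of 28 genes was among them. With the replicate number as a block 196 differences were called, 12 of them among the 19, and among named genes FKBP5 (0.23, adjusted p = 0.0152), PMEPA1 (0.27, 0.03), ACSL3 (0.25, 0.0113), CRISPLD2 (0.77, 0.0193), CSGALNACT1 (0.39, 0.00949), TRIM45 (-0.46, 0.0051) and TINAGL1 (-1.2, 0.0447) gained a call. RAB20, a small GTPase of vesicle traffic (ENSG00000139832, chromosome 13, 110523066 to 110561722), had 11.6, 10.1 and 10.5 CPM with DMSO and 43.2, 52.9 and 50.2 CPM with R1881 in sgT33-5. In NT3 its levels were 10.4, 11.1 and 11.01 CPM and 20.5, 23.02 and 18.4 CPM. The DMSO libraries of the lines overlapped, every sgT33-5 library with R1881 lay above every NT3 library, and the difference was 1.25 (0.141) (adjusted p = 2.33e-04). SMOC2, a matricellular calcium-binding protein, went from 18.99, 17.9 and 22.7 CPM to 32.3, 32.5 and 36.5 CPM in sgT33-5 and from 23.6, 24.3 and 24.8 CPM to 26.9, 24.5 and 25.1 CPM in NT3, a difference of 0.69 (0.115) (adjusted p = 0.0161). PTPRN2, a protein of secretory granules, rose by 2.26 in sgT33-5 and 1.63 in NT3, and KRT8 by 1.11 and 0.78, differences of 0.62 (0.122) and 0.34 (0.065).

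Of the 15 lower differences, 7 were genes of the mitochondrial chromosome. The subunits of complex I MT-ND5 and MT-ND4L had log2 fold changes of -0.25 and -0.27 in sgT33-5 against 0.51 and 0.49 in NT3, differences of -0.76 (0.113) and -0.76 (0.116). The median over the 15 tested mitochondrial genes was -0.25 in sgT33-5, where 8 fell and 0 rose, and 0.48 in NT3. With the replicate block MT-ND5 and MT-ND4L were not called in sgT33-5 (adjusted p = 0.0848 and 0.0886). The call of MT-ND5 was also lost without any 1 of 5 of the 6 libraries (adjusted p of 0.0605 to 0.129) and with no filter (0.0566), and that of MT-ND4L without R1881 replicate 2 or DMSO replicate 1 (0.0926 and 0.0931). The mitochondrial share of counts in NT3 was 2.94% to 3.32% with DMSO and 3.76% to 4.39% with R1881, so the lines moved in opposite directions from different starting shares. Reads of mitochondrial genes can also match nuclear copies. FAM229A, RNF207, GABBR1, which encodes a GABA-B receptor subunit, and CSAD, an enzyme of taurine synthesis, had differences of -1.25 (0.21), -1.0 (0.192), -0.86 (0.166) and -0.82 (0.162). FAM229A, for example, had 11.8, 10.99 and 8.5 CPM and then 7.22, 8.72 and 6.97 CPM in sgT33-5, and 6.56, 6.57 and 5.97 CPM and then 8.58, 12.7 and 11.9 CPM in NT3. With DMSO every sgT33-5 library lay above every NT3 library, and with R1881 the ranges overlapped.

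The number of called differences depended on single libraries. It was 92, 5 and 5 without NT3 R1881 replicate 1, 2 and 3, and 9 and 42 without NT3 DMSO replicate 1 and 2. It was 8 without sgT33-5 R1881 replicate 2, 8 and 8 without sgT33-5 DMSO replicate 1 and 2, and 66 without sgT33-5 DMSO replicate 3. Only 2 genes, RAB20 and SMOC2, were called when all 36 libraries were fitted together. The call of SMOC2 was lost without NT3 R1881 replicate 2 or 3 or sgT33-5 DMSO replicate 1 or 2 (adjusted p of 0.0512 to 0.0689). RAB20 kept its call in each alternative run, and each of the other 8 genes named above lost its call in at least 5 alternatives.

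**Figure D4:**
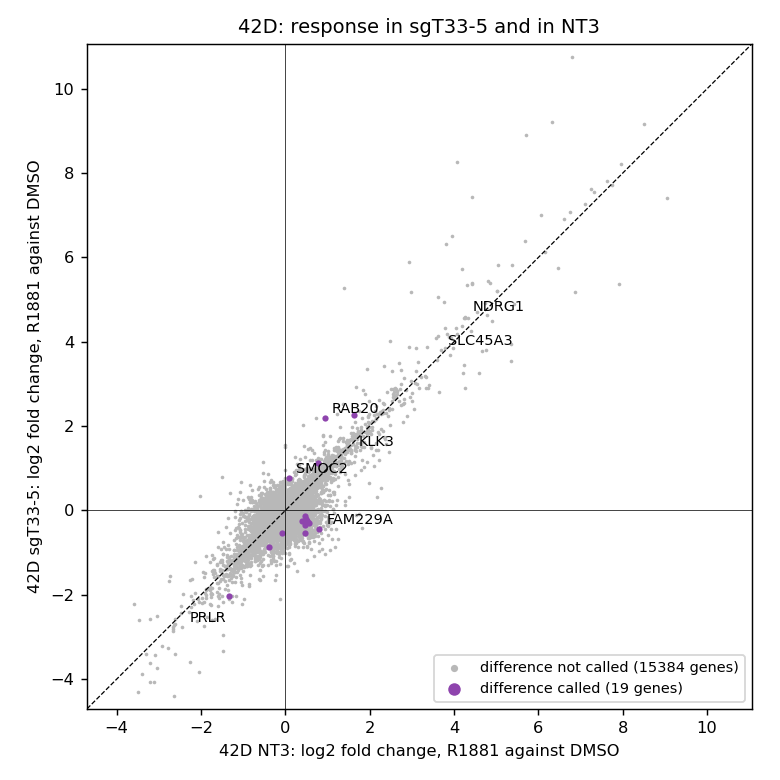
Log2 fold change of R1881 against DMSO in 42D sgT33-5 (vertical axis) and 42D NT3 (horizontal axis), 1 point per gene for 15403 genes. Purple points are the 19 genes whose difference between the lines was called, grey points the others, and the dashed line marks equal responses. RAB20 and SMOC2 lie above the line, and FAM229A lies below it.

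The response was also compared with that of LNCaP sgT33-5, which carries the same guide name in the parental cell line. This comparison uses 1 sgT33-5 line of each, so effects of the parental or resistant cells and of the single line cannot be told apart. In it, 42D and LNCaP stand for their sgT33-5 lines. In the fit of all 36 libraries the difference passed the threshold for 877 of 16564 genes (5.29%), with 551 responses higher and 326 lower in 42D. The number of lower differences was 214 and 195 without 42D sgT33-5 R1881 replicate 2 and 3, and 202 and 212 without 42D sgT33-5 DMSO replicate 1 and 2. LNCaP sgT33-5 with DMSO, replicate 3, and with R1881, replicate 1, stand apart with mitochondrial shares of 2.14% and 2.4%, and without them 771 differences were called. Of the panel of 28 genes 11 differed. Levels in this comparison are scaled in that fit.

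NDRG1 had a larger response in 42D. Its levels in LNCaP sgT33-5 were 39.9, 39.3 and 37.7 CPM with DMSO and 80.5, 109 and 112 CPM with R1881, against means of 24.7 and 595 CPM in 42D, and the difference was 3.22 (0.252) (adjusted p = 1.13e-09). FKBP5 had 86.5, 79.2 and 80.1 CPM and then 441, 482 and 583 CPM in LNCaP, against means of 62.3 and 1082 CPM in 42D, a difference of 1.5 (0.104). For SLC45A3 the difference was 0.97 (0.209), with a higher start in LNCaP (50.9, 51.5 and 44.9 CPM). SOCS2, a suppressor of cytokine signalling, rose by 0.7 in LNCaP and differed by 2.83 (0.328), and the secreted protein CRISPLD2 rose by 3.3 in 42D and differed by 2.73 (0.352). MAK and MOGAT2 differed by 2.96 (0.427) and 4.93 (0.58), MOGAT2 from a level near 0 in 42D with DMSO. The gene ENSG00000287262 differed by 3.48 (0.905), a call lost without LNCaP sgT33-5 DMSO replicate 2 (adjusted p = 0.236).

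TMPRSS2 had the smaller response in 42D. In LNCaP sgT33-5 it had 48.04, 48.6 and 47.9 CPM with DMSO and 524, 603 and 521 CPM with R1881, and in 42D means of 153 and 522 CPM. The DMSO levels lay apart while the 42D mean with R1881 lay within the LNCaP range, and the difference between their responses was -1.74 (0.17) (adjusted p = 3.28e-08). KLK3 had 494, 485 and 454 CPM and then 1033, 1128 and 941 CPM in LNCaP, and the difference of 0.29 (0.258) missed the threshold (adjusted p = 0.671). WNT5A, PRLR and PMP22 fell further in 42D, with differences of -1.91 (0.114), -1.73 (0.291) and -1.73 (0.268).

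The lowest differences belong to NNT and CXCR4, both below 1 CPM in every LNCaP sgT33-5 library. The mitochondrial transhydrogenase NNT had 0, 0 and 0 CPM and then 0.383, 0.251 and 0.509 CPM in LNCaP sgT33-5, while in 42D its means were 48.3 and 49.6 CPM, so the difference of -5.64 (0.959) rests on few LNCaP counts and depends on the prior count of the fit. The chemokine receptor CXCR4 had 0, 0.0566 and 0 CPM and then 0.575, 0.566 and 0.127 CPM in LNCaP against means of 8.29 and 3.8 CPM in 42D, a difference of -5.05 (1.01). Coagulation factor F5 rose by 4.78 in LNCaP and 2.21 in 42D, a difference of -2.58 (0.535) that was not called when only these 12 libraries were fitted (adjusted p = 0.0602). The chondroitin sulfate enzyme CSGALNACT1 and the transcription factor EBF2 differed by -2.53 (0.461) and -2.15 (0.293). The adrenergic receptor ADRA2A differed by -1.93 (0.517), a call lost without LNCaP sgT33-5 R1881 replicate 1 or 2 or DMSO replicate 2 or 3 (adjusted p of 0.0607 to 0.0758) and without the 2 LNCaP libraries of lowest mitochondrial share (0.171).

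**Figure D5:**
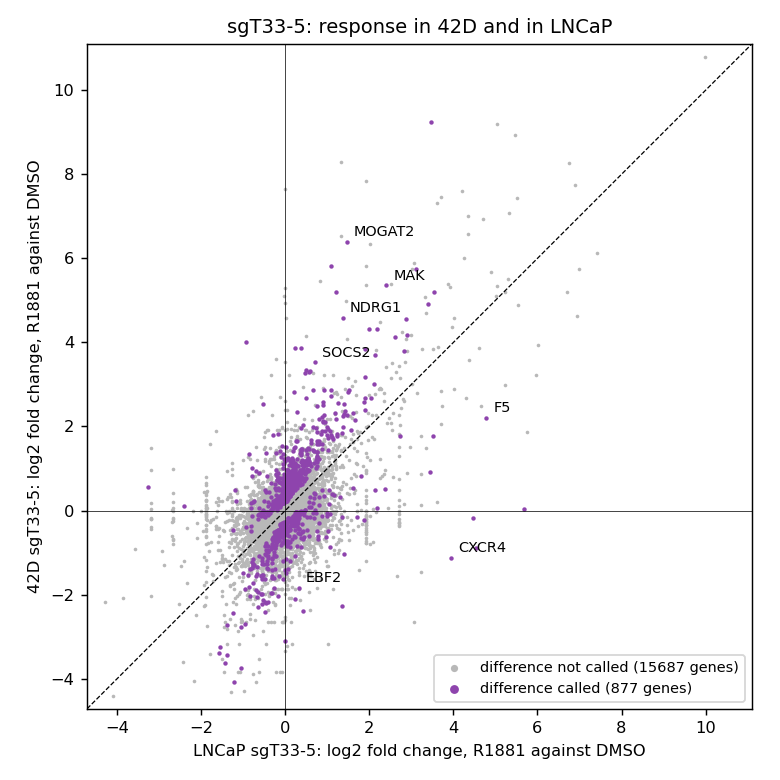
Log2 fold change of R1881 against DMSO in 42D sgT33-5 (vertical axis) and LNCaP sgT33-5 (horizontal axis) from the fit of all 36 libraries, 1 point per gene for 16564 genes. Purple points are the 877 genes whose difference was called, grey points the others, and the dashed line marks equal responses. MOGAT2, MAK, NDRG1 and SOCS2 lie above the line, and F5, CXCR4 and EBF2 lie below it.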

How the data were processed

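Polyadenylated RNA of 36 libraries was sequenced as 51 bp paired-end reads from a stranded preparation, per the labels' protocols. Reads were trimmed with cutadapt and aligned to GRCh38 (hg38) with HISAT2 2.1.0, per the submitters' processing notes. The gene counter and annotation are not given in the sources used here. The authors deposited raw counts per gene, without scaling, and the values are whole numbers for 61806 entries, of which 1 names no gene and holds 0 counts. The labels do not say that replicates were separate cultures, so p-values measure the spread between these samples, which may be technical.

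Counts were normalised by TMM and filtered for low expression (filterByExpr), then tested by the 2-sided quasi-likelihood F test of edgeR 4.0.16 (R 4.3.3) with robust dispersions; p-values were adjusted by Benjamini-Hochberg over all genes tested, at a threshold of 0.05. The 12 libraries of 42D were fitted together with 1 coefficient per group (15403 genes), and all 36 libraries for the comparison with LNCaP (16564 genes). Differences in response are interaction contrasts, and each SE comes from the fold change and its F statistic. CPM uses the TMM-adjusted library total. The code was tested on simulated data. Other settings tried were a fit of only the libraries compared or of all 36, DESeq2 1.42.0, no filter, RLE scaling, a block for the replicate number, a minimum change of 2-fold, each library left out in turn, and the 2 LNCaP libraries of lowest mitochondrial share left out. Leaving out mitochondrial genes was added after seeing the data.

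In 42D sgT33-5, libraries of the same replicate number deviated together between treatments (correlations of 0.145, 0.156 and 0.235). The number served as a block in an alternative run only, and the reported tests do not pair the libraries. The members, gene lists and tests were chosen with earlier results of these data known, and the lists come from general knowledge. Named genes are a panel of 28, the 12 largest called rises and falls with a group mean of at least 5 CPM and no overlap between groups, the 2 largest called changes of each list in each direction, and the 6 largest called differences in each direction from NT3 and from LNCaP. Promoters are from RefSeq (GRCh38.p14), 1 per symbol. Some genes and a list that the rule names are not reported here.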

Additional observations from a re-analysis of the deposited data

Results flagged for a closer look

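The response of 42D sgT33-5 differed from that of 42D NT3 by the interaction test of edgeR in 10 genes named here. It was higher in RAB20 by 1.25, SMOC2 by 0.69, PTPRN2 by 0.62 and KRT8 by 0.34 on the log2 scale. The difference was -1.25 in FAM229A, -1.0 in RNF207, -0.86 in GABBR1, -0.82 in CSAD, -0.76 in MT-ND4L and -0.76 in MT-ND5. The adjusted p of these differences ran from 2.33e-04 in RAB20 to 0.0483 in GABBR1. RAB20 kept its call in all 18 alternatives, and the other genes lost theirs in from 4 (SMOC2) to 12 (CSAD).

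The response differed from that of LNCaP sgT33-5 by the same kind of test in a further set of named genes. It was higher in 42D by 4.93 in MOGAT2, 3.48 in ENSG00000287262, 3.22 in NDRG1, 2.96 in MAK, 2.83 in SOCS2, 2.73 in CRISPLD2, 1.5 in FKBP5, 0.97 in SLC45A3, 0.48 in ELL2 and 0.36 in CAMKK2. The difference was -5.64 in NNT, -5.05 in CXCR4, -2.58 in F5, -2.53 in CSGALNACT1, -2.15 in EBF2, -1.93 in ADRA2A, -1.91 in WNT5A, -1.74 in TMPRSS2, -1.73 in PMP22, -1.73 in PRLR and -0.43 in CAMK2N1. The call of ELL2 was lost without LNCaP sgT33-5 DMSO replicate 3 (adjusted p = 0.0554). It was also lost without the 2 LNCaP sgT33-5 libraries of lowest mitochondrial share (0.0742). Of 19 alternatives, CAMK2N1 lost its call in 13, ADRA2A in 5, F5 in 1 and ENSG00000287262 in 1.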

How the results depend on the processing

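With a 2-fold minimum the response held 769 genes, 449 higher and 320 lower. Its count was otherwise 3501 to 4240 without 1 library, 3630 with DESeq2, 3940 with only the 6 libraries fitted and 5395 with the replicate block, under which 4201 of the 4211 calls were kept in direction. Of 2157 values of single genes under alternatives, 2091 stayed on their side of the threshold with the same sign, 60 lost a call and 6 gained one.

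The 19 differences from NT3 became 70 with DESeq2, 2 with all 36 libraries, 168 without a filter, 5 without mitochondrial genes (an alternative chosen after seeing the data) and 5 to 92 without 1 library. With the replicate block the count was 196, of which 12 were among the 19. Same-numbered libraries correlated by 0.133, 0.19 and 0.187 between treatments in NT3, and between the 2 lines by 0.134, 0.126 and 0.218 with R1881 and by 0.0873, 0.0999 and 0.186 with DMSO. Each 42D library correlated best with its own number, a hint from the data that the replicates are matched. The 2 pairs that missed the minimum of 0.1 were DMSO pairs between the lines. Every same-numbered 42D pair between treatments was above it. The fit without the block was kept as the reported one, so its tests ignore any such matching. The 877 differences from LNCaP became 1528 with the replicate block, where same-numbered LNCaP sgT33-5 libraries correlated by -0.0286, 0.201 and 0.118 between treatments, and 737 to 882 without 1 library. Among 120 named genes the block changed the response call of PLA2G2A, GABBR1 (called lower, adjusted p = 0.0395), MT-ND4L and MT-ND5. It added 7 differences from NT3, ended those of MT-ND4L and MT-ND5 (adjusted p = 0.0805 and 0.0585), and added 9 differences from LNCaP and ended 0. No value reversed in the alternatives run. The cause of these changes was not tested. The response of SLC30A10 rests on 26 counts with DMSO and 2 with R1881.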

Other observations

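Gene classes were called at different shares in 42D sgT33-5, a difference that was not tested. Of 12732 tested protein-coding genes 16.2% rose and 13.8% fell, with a median log2 fold change of -0.00316. Of 1970 tested long noncoding RNAs 4.37% rose and 10.7% fell, with a median of -0.13.

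TINAGL1, 1 of the 12 largest falls, began higher in sgT33-5 than in NT3. Its DMSO libraries had 11.5, 9.14 and 10.5 CPM in sgT33-5 and 3.46, 4.84 and 2.55 CPM in NT3, a log2 difference of 1.53 (0.192) (edgeR, adjusted p = 1.39e-04). With R1881 the levels were 2.69, 2.34 and 1.59 CPM and 2.35, 1.69 and 1.24 CPM, and the difference between the responses was -1.19 (0.35), which missed the threshold (adjusted p = 0.255) and passed it with the replicate block (adjusted p = 0.0447). UBE2QL1 showed the reverse order, with like levels under DMSO and 39.4, 48.1 and 47.9 CPM against 17.8, 17.2 and 17.6 CPM with R1881, a log2 difference of 1.36 (0.0952) (adjusted p = 2.30e-08), while the difference between its responses was 0.94 (0.606) (adjusted p = 0.821). Among the genes whose response differed from NT3, ZBTB43, a zinc finger gene chosen after its values were seen, fell from 257.6 to 63.5 CPM (group means) in sgT33-5 and from 117.9 to 46.8 CPM in NT3, a difference of -0.68.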
